A study of Mus musculus with 10 samples.

Results

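The regions described here carried a ChIP-seq peak of both FLAG-tagged Nanog and Sin3a in every deposited peak list and were narrower than 2000 bp. They were selected by merging the peaks of the 4 lists that shared at least 1 base and keeping merged regions with a peak of each list. Of 45707 merged regions, 11281 met the rule, which is 24.7% (95% Wilson interval 24.3 to 25.1%). They made up 95.9% of the 11761 regions present in all 4 lists; the other 480 were 2000 bp or wider. They are called shared narrow sites below. Because the lists themselves chose the sites, presence in a list, width and strength are given as descriptions without a test.

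ChIP-seq had been run on mouse pre-iPSCs, partly reprogrammed cells that came from neural stem cells of female animals of strain 129/MF1 and carried an Oct4-GFP-IRES-puro reporter. All lines were kept in serum with LIF and had been stably transfected with PiggyBac-CAG transposon vectors, so the constitutive CAG promoter drove each transgene. The Nanog + Sin3a line carried FLAG-tagged Nanog and Sin3a. The Nanog line carried FLAG-tagged Nanog with an empty vector, and the Sin3a line carried Sin3a with an empty vector. FLAG (antibody F1804) was precipitated in the Nanog + Sin3a line and in the Nanog line, and Sin3a (antibody ab3479) in the Nanog + Sin3a line and in the Sin3a line. Each of these 4 groups had 2 replicates but 1 list, without values per replicate, so the spread between replicates is unknown for every value below. The antibody against FLAG sees only the transgenic Nanog, whereas the one against Sin3a sees Sin3a protein of either source.

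Nanog is a homeodomain transcription factor of the pluripotency network of embryonic stem cells and binds DNA directly. Sin3a has no known sequence-specific DNA-binding domain of its own. It is a scaffold that holds histone deacetylases and reaches chromatin through transcription factors and partner subunits, and in mouse embryonic stem cells it has been found in the same complexes as Nanog. Overlap of peaks from separate precipitations shows that both proteins were found at a place in the cell population, not that they were bound on the same DNA molecule.

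The lists differed in length, with 36286 FLAG peaks in the Nanog + Sin3a line and 38485 in the Nanog line, and 18231 Sin3a peaks in the Nanog + Sin3a line and 17168 in the Sin3a line. The shared narrow sites held 35.1% of the FLAG peaks of the Nanog + Sin3a line and 33.3% of those of the Nanog line. Of the Sin3a peaks they held 66.8% in the Nanog + Sin3a line and 69.4% in the Sin3a line. Most of each Sin3a list therefore lay in them, and the smaller part of each FLAG list. Coordinates are given on build mm9. Genes and base sequence at the sites were not analysed here.

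The shared narrow sites covered 10.5 Mb, against 1.20 Mb for the wide regions of all 4 lists. Their width had a median of 875 bp, with quartiles of 641 and 1171 bp and extremes of 244 and 1999 bp. The comparison classes were 12306 regions in both FLAG lists and neither Sin3a list (FLAG-only regions, median width 394 bp) and 742 in both Sin3a lists and neither FLAG list (Sin3a-only regions, 412 bp). A merged region of 4 peaks is wide by construction. Widths of 500 to 1000 bp were the commonest, at 5685 sites (50.4%), and 1122 sites (9.95%) were 1500 bp or wider.

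At most sites every list contributed a single peak. Exactly 1 peak of each list was found at 8473 sites (75.1%). More than 1 FLAG peak lay in 1377 sites (12.2%) in the Nanog + Sin3a line and in 1424 (12.6%) in the Nanog line. More than 1 Sin3a peak lay in 860 sites (7.62%) in the Nanog + Sin3a line and in 621 (5.50%) in the Sin3a line. At 366 sites FLAG was split into several peaks in both lines while Sin3a formed 1 peak in both, and the reverse held at 77 sites.

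The regions named as nearest to the width limit had similar folds on either side of it. Just inside it, the site at chr3:116126350-116128348 (1999 bp) had authors' fold enrichments of 7.11 for FLAG in the Nanog + Sin3a line and 9.94 in the Nanog line, while those of Sin3a were 7.57 in the Nanog + Sin3a line and 8.89 in the Sin3a line. The fold divides the scaled ChIP pileup at the summit, plus 1, by the expected background, plus 1. Just outside it, the region at chr11:118150045-118152044 (2000 bp) had FLAG folds of 9.11 and 8.69 and Sin3a folds of 7.06 and 12.7 in the same order of lists. The next pair, chr4:132796203-132798199 inside (1997 bp) and chr9:102619285-102621284 outside (2000 bp), had folds of 6.55 to 9.18 and of 5.56 to 11.0. The values of these few regions inside and outside the limit overlapped. They do not show how strength changed near the limit in general.

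**Figure D1:**
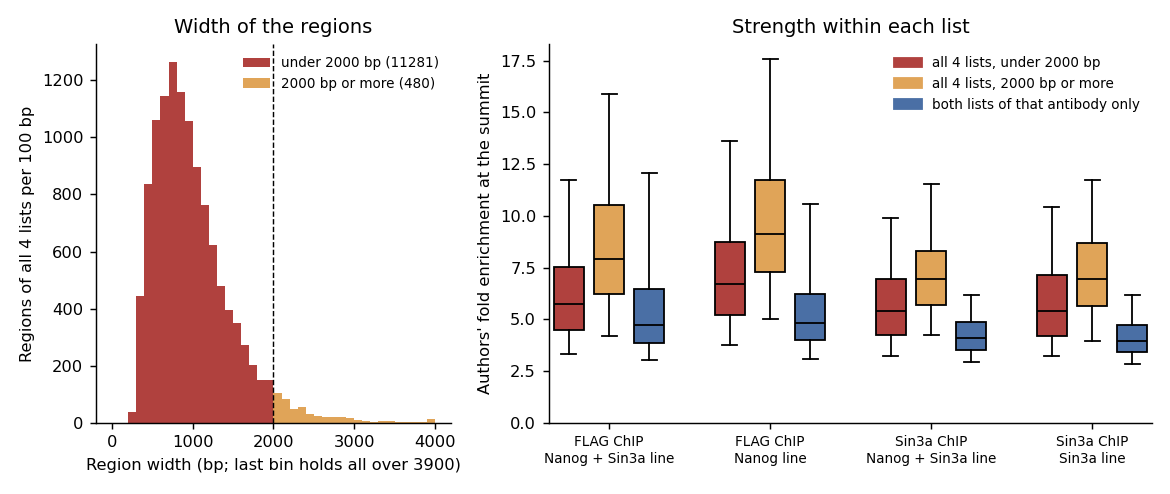
Left, the number of regions of all 4 lists by width in bp, with a dashed line at 2000 bp between shared narrow sites and wide regions. Right, the authors' fold enrichment in each list for shared narrow sites, wide regions and regions of that antibody alone (box, quartiles and median; whiskers, the 5% and 95% quantiles). The median fold of the shared narrow sites lies above that of single-antibody regions and below that of wide regions in every list.

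The shared narrow sites were stronger than regions of 1 antibody in all lists, by the same peaks that chose them. For FLAG, the median fold in the Nanog + Sin3a line was 5.76 at the shared narrow sites and 4.74 at FLAG-only regions. In the Nanog line it was 6.69 at the shared narrow sites and 4.84 at FLAG-only regions. For Sin3a, it was 5.40 at the shared narrow sites and 4.11 at Sin3a-only regions in the Nanog + Sin3a line, and 5.40 and 3.94 in the Sin3a line. The wide regions had higher medians still, of 7.91 and 9.15 for FLAG and 6.93 in each Sin3a list. A site is more likely to pass 4 thresholds where signal is high, so this order follows in part from the rule.

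The number of ChIP fragments over the summit, recovered from the deposited values, gives the depth behind these folds. It had medians of 48 for FLAG in the Nanog + Sin3a line and 47 in the Nanog line, while the Sin3a medians were 45 in the Nanog + Sin3a line and 53 in the Sin3a line. Across sites it ran from 19 to 310 over the 4 lists, with 5% quantiles of 27 to 31 and 95% quantiles of 84 to 103. A single site thus rested on few fragments in most cases, and its exact Poisson interval is wide. The median −log10 q was 14.4 and 19.3 for FLAG and 13.4 and 14.3 for Sin3a in the same order. All 4 peaks had a −log10 q of at least 10 at 4631 sites (41.1%), and at 2578 sites (22.9%) at least 1 list had a value under 5.

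Fold went with width in every list. At sites narrower than 500 bp the median fold was 4.68 for FLAG in the Nanog + Sin3a line and 5.23 in the Nanog line, and 4.38 and 4.31 for Sin3a. At sites of 1500 bp or more it was 7.03 and 8.12 for FLAG and 6.64 and 6.82 for Sin3a. The 2 middle width classes lay between these values in each list. Strength and width were not separated here.

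Strong Sin3a peaks lay almost wholly in these sites, and strong FLAG peaks did not. Of the 100 Sin3a peaks with the highest fold, 94 lay in shared narrow sites in the Nanog + Sin3a line and 94 in the Sin3a line. Of the 100 FLAG peaks with the highest fold, 25 did in the Nanog + Sin3a line and 49 in the Nanog line. FLAG-only regions held 59 of the top FLAG peaks in the Nanog + Sin3a line and 32 in the Nanog line. Among the top 1000 peaks the shared narrow sites held 905 and 901 for Sin3a, and 344 and 582 for FLAG, with 489 and 249 of the FLAG peaks in FLAG-only regions. Over all peaks, in the same order, the sites held 66.8% and 69.4% of the Sin3a lists and 35.1% and 33.3% of the FLAG lists. The top 1000 FLAG peaks were thus close to that share in the Nanog + Sin3a line and above it in the Nanog line. Fewer of the strongest FLAG peaks therefore lay in shared narrow sites in the Nanog + Sin3a line than did so in the Nanog line.

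The strongest sites were named by the lowest of their 4 percentile ranks, where a rank of 100 is the highest fold of a list. At chr19:4988902-4989494 the summit carried 184 FLAG fragments in the Nanog + Sin3a line (Poisson interval 158 to 213) and 153 in the Nanog line (130 to 179), and 285 Sin3a fragments in the Nanog + Sin3a line (253 to 320) and 272 in the Sin3a line (241 to 306). At chr7:6362677-6363278 the FLAG folds were 19.1 and 17.2 and the Sin3a folds 32.3 and 27.3. These narrow sites of 593 and 602 bp stood apart in Sin3a, whose largest folds over all sites were 32.3 and 27.3. The remaining 4 of the top 6 sites were more even. At chr2:168032578-168033339 the FLAG folds were 17.1 and 18.5 and the Sin3a folds 13.0 and 12.9, and its 4 summits lay within 25 bp. The sites chr5:92863409-92864809, chr6:143047560-143049279 and chr1:93146270-93147428 had folds of 12.8 to 22.4 over the 4 lists.

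The weakest sites were close to the limit of calling. By the highest of their 4 −log10 q values, the weakest lay at chr1:135990461-135991037, with FLAG folds of 2.29 and 2.84 and Sin3a folds of 3.12 and 3.01. It rested on 30 FLAG fragments in the Nanog + Sin3a line, 25 in the Nanog line, 31 Sin3a fragments in the Nanog + Sin3a line and 33 in the Sin3a line. The next, at chr5:139743595-139744221 and chr2:13497630-13498031, had folds of 2.40 to 3.31. At these places expected background was 5.43 to 9, against medians over all sites of 4.76 and 4.68 for FLAG and 5.05 and 5.41 for Sin3a. It was above the median of its list except in the Sin3a line at chr2:13497630-13498031, where 5.43 was level with it.

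FLAG and Sin3a strength were only loosely related across the sites. For each site the percentile ranks of its peaks were averaged over the 2 lists of an antibody. The medians were 70.2 for FLAG and 62.3 for Sin3a, each relative to its own lists, which differ in length. Spearman's rho between the mean FLAG rank and the mean Sin3a rank was 0.30 over the 11281 sites, and 0.12 over the 480 wide regions. It was 0.83 between the FLAG lists and 0.79 between the Sin3a lists. Between antibodies it was 0.25 within the Nanog + Sin3a line and 0.29 across the single-transgene lines. Every site had to pass a threshold in each list, and sites differ in width and background, so rho is a description only.

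**Figure D2:**
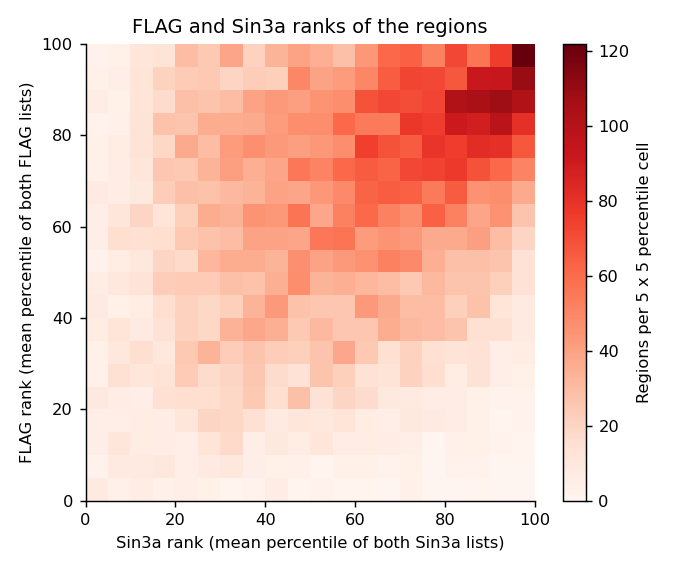
Mean percentile rank by fold in the FLAG lists against that in the Sin3a lists for the shared narrow sites (shading, number of sites per cell). Sites fill most of the square, with 1465 in the corner where both ranks are at least 80 and 176 where the Sin3a rank is at least 80 and the FLAG rank is under 40.

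Few sites were strong for 1 protein and weak for the other, which follows in part from the rule. Regions that lacked a peak in any list had been left out beforehand. Both mean ranks were at least 80 at 1465 sites (13.0%), and both were under 40 at 786 (6.97%). FLAG was at least 80 with Sin3a under 40 at 626 sites (5.55%), and Sin3a was at least 80 with FLAG under 40 at 176 (1.56%). Among the wide regions, 179 (37.3%) were at least 80 in both. Sorted by mean Sin3a rank, low to high, into 5 groups of equal size, the sites had median FLAG ranks of 59.2, 63.0, 68.5, 73.6 and 81.1 and median widths of 676, 756, 868, 1008 and 1092 bp. FLAG rank and width thus both went up with Sin3a rank.

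Sites with strong FLAG and weak Sin3a were led by chr1:135882157-135883387. Its summit carried 213 FLAG fragments in the Nanog + Sin3a line (185 to 244) and 137 in the Nanog line (115 to 162), against 30 Sin3a fragments in each Sin3a list (20 to 43). The FLAG folds were 24.7 and 19.2 and the Sin3a folds 2.68 and 2.65. At chr3:102176007-102176790 the FLAG folds were 12.7 and 15.0 and the Sin3a folds 2.90 and 2.60, and at chr2:169786998-169788548 they were 11.0 and 10.9, and 2.54 and 2.83. In each of these sites the weaker antibody was close to its calling limit in both lines. The background expected under their Sin3a summits was 6 to 8, against 4.68 to 5.34 under their FLAG summits. The part of background in the low Sin3a folds was not tested.

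The opposite sites were led by chr8:72757541-72759111. It carried 36 FLAG fragments in the Nanog + Sin3a line (25 to 50) and 38 in the Nanog line (27 to 52), against 108 Sin3a fragments in the Nanog + Sin3a line (89 to 130) and 134 in the Sin3a line (112 to 159). The FLAG folds were 2.73 and 3.77 and the Sin3a folds 13.5 and 14.3. Its FLAG and Sin3a summits lay 286 bp apart in the Nanog + Sin3a line and 339 bp apart across the single-transgene lines, and the background expected under the FLAG summits was 9 and 8, against 5.27 and 5.64 under the Sin3a summits. At chr5:123525512-123526759 the FLAG folds were 2.22 and 2.77 and the Sin3a folds 6.89 and 8.51, and at chr7:108449877-108450953 they were 2.88 and 3.64, and 8.54 and 10.7. The FLAG background was 10 in both lists at each of these sites, against 9 and 8 for Sin3a at the one on chromosome 5 and 5.27 and 5.43 at the one on chromosome 7. The part of background in the low FLAG folds was not tested.

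At the shared narrow sites the FLAG signal of the Nanog + Sin3a line lay below that of the Nanog line, and at FLAG-only regions the lines were nearly level. Signal was compared between lines as the ratio of summit fragments after the authors' scaling, at regions with a recovered fragment number in both lists. The median ratio was 0.867 at 11235 shared narrow sites, a log2 ratio of −0.21, with quartiles of −0.38 and −0.02. At 12241 FLAG-only regions the median log2 ratio was −0.02, and over all 26926 regions with a FLAG peak in both lines −0.12. The ratio was below 1 at 77.7% of the shared narrow sites and at 51.8% of the FLAG-only regions. Wide regions of all 4 lists had a median of −0.19, close to that of the narrow sites. With 1 list per group, a difference between lines cannot be told apart from one between precipitations or libraries.

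Ratios over 1.5 were rare at the shared narrow sites. A ratio over 1.5 was found at 67 shared narrow sites (0.596%) and at 1177 FLAG-only regions (9.62%), against 4.85% of all 26926 regions with FLAG peaks in both lines. A ratio under 1/1.5 was found at 869 shared narrow sites (7.73%) and at 609 FLAG-only regions (4.98%), against 6.25% of all. When ratios were divided by the median of all regions with FLAG in both lines, the median log2 ratio was −0.08 at the shared narrow sites and 0.11 at FLAG-only regions. The counts then were 152 higher and 348 lower at the shared narrow sites, and 1672 higher and 256 lower at FLAG-only regions. Of the shared narrow sites 1.35% were then higher and 3.10% lower, against 7.27% and 2.58% of all 26926 regions, so the lower share was close to that of all. By the authors' fold 1.18% of the sites were higher and 10.1% lower. Where both FLAG lists reached a −log10 q of 10, 0.404% were higher and 4.86% lower. Shares over all regions by the authors' fold or at this −log10 q are not given here. The lower side kept the larger count at the shared narrow sites, and at FLAG-only regions the higher side had it under both scalings. After this scaling 62.0% of the shared narrow sites and 38.1% of FLAG-only regions lay below the median of all.

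**Figure D3:**
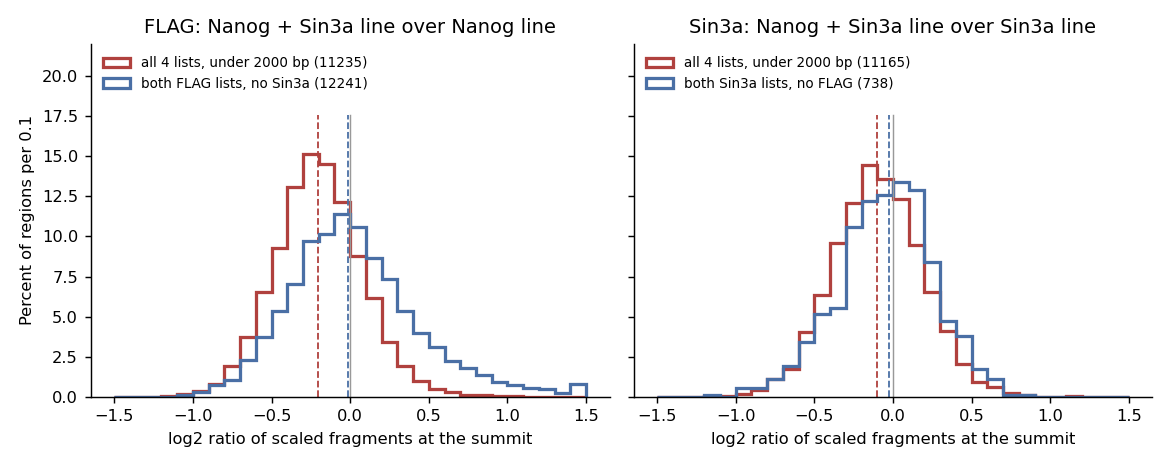
Distribution of the log2 ratio of scaled summit fragments, Nanog + Sin3a line over Nanog line for FLAG (left) and Nanog + Sin3a line over Sin3a line for Sin3a (right), as percent of regions, for shared narrow sites and for regions of that antibody alone (dashed lines, medians). The FLAG medians are −0.21 and −0.02, and the Sin3a medians −0.10 and −0.03; the FLAG-only curve has the longer right tail.

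The spread of ratios over the shared narrow sites was no larger than counting fragments alone would give. Their FLAG log2 ratios had an SD of 0.279 over sites, and counting error alone gave 0.303. At FLAG-only regions the SD was 0.428 and counting error 0.335. The 5% and 95% quantiles were −0.65 and 0.26 at the shared narrow sites, and −0.58 and 0.81 at FLAG-only regions. Most single sites were therefore not distinguishable from the common shift at this depth. Summits are the highest point of a peak and had to pass a threshold in both lists, which narrows the spread, so the counting figure is an approximate guide.

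The shift was present in every bin of FLAG strength. In bins of mean FLAG rank of 0 to 20, 20 to 40, 40 to 60, 60 to 80, 80 to 90 and 90 to 100, the median FLAG log2 ratio at the shared narrow sites was −0.13, −0.20, −0.21, −0.22, −0.20 and −0.20. At FLAG-only regions of the same bins it was −0.03, −0.07, −0.02, 0.02, 0.06 and 0.09. The shared narrow sites had the lower median in every bin, by the widest margin in the top bin, which held 1729 of them and 921 FLAG-only regions. In the 5 groups by mean Sin3a rank, low to high, the sites had median FLAG log2 ratios of −0.18, −0.20, −0.22, −0.22 and −0.22. On 20 of 20 chromosomes the shared narrow sites lay below the FLAG-only regions, with medians of −0.34 (chromosome 18) to −0.18 (chromosome 13), against −0.08 to 0.05.

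**Figure D4:**
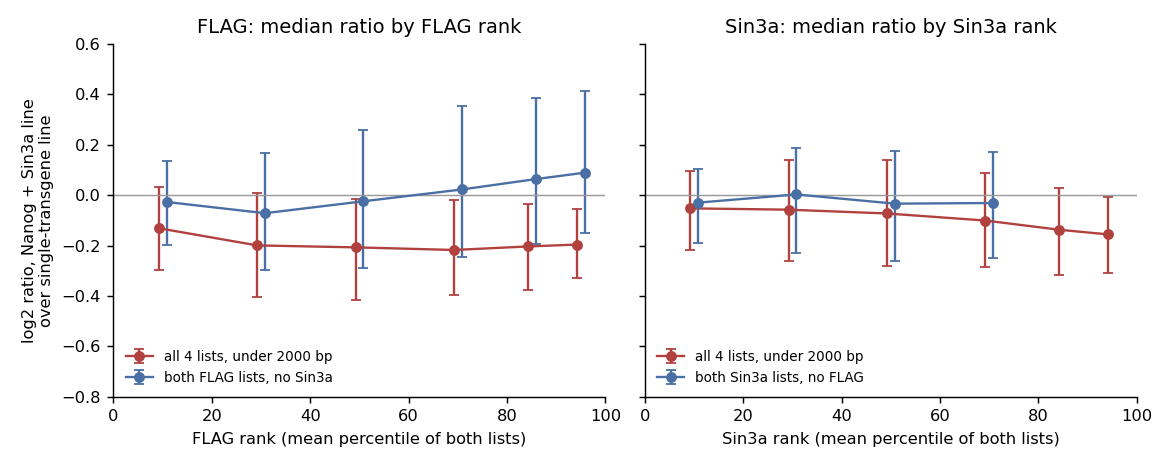
Left, the log2 ratio of FLAG fragments, Nanog + Sin3a line over Nanog line, by bin of mean FLAG rank, for shared narrow sites and FLAG-only regions (points, medians; bars, quartiles over regions; right, the same for Sin3a over the Sin3a line, by mean Sin3a rank). On the left the shared narrow sites run between −0.22 and −0.13, below the FLAG-only regions in each bin, with quartiles that overlap.

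Individual FLAG ratios far from the shift were named among sites with at least 20 fragments in each FLAG list. The highest was at chr12:76620602-76621834, with 261 fragments in the Nanog + Sin3a line (230 to 295) and 81 in the Nanog line (64 to 101). Its log2 ratio after scaling was 1.44, and its FLAG folds were 33.3 and 12.5. Sin3a there was weak in both lines, with folds of 4.25 and 3.76. At chr9:88377800-88378552 FLAG had 105 and 40 fragments (log2 ratio 1.15), while Sin3a had 35 fragments in the Nanog + Sin3a line and 64 in the Sin3a line (−0.73). By the authors' fold the Sin3a log2 ratio there was −0.14, with an expected background of 5.05 and 8. The next was chr7:80759134-80760399, with 111 and 44 FLAG fragments (1.09). All 3 had over 100 FLAG fragments in the Nanog + Sin3a line, and they were picked for their ratio.

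The lowest FLAG ratios were at the following sites. At chr6:95668151-95668717 the summit held 24 FLAG fragments in the Nanog + Sin3a line (15 to 36) and 48 in the Nanog line (35 to 64), a log2 ratio of −1.25. At chr2:32773020-32773470 there were 27 and 53 (−1.22). The site at chr17:75116619-75117539 combined 22 and 42 FLAG fragments (−1.18) with high Sin3a folds of 13.6 in both lines. In the Nanog line these 3 summits were near the median of 47 fragments over all sites.

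By the authors' fold, Sin3a at the shared narrow sites was nearly level between the Nanog + Sin3a and Sin3a lines. Its scaled fragments were lower in the Nanog + Sin3a line, by less than for FLAG, and close to the median of all regions. The median ratio was 0.933 at 11165 sites, a log2 ratio of −0.10, against −0.11 at wide regions, −0.03 at 738 Sin3a-only regions and −0.06 at the 2402 other regions with a Sin3a peak in both lines. A ratio over 1.5 was found at 125 sites (1.12%, against 1.24% of all 13567 regions with Sin3a in both lines) and one under 1/1.5 at 444 (3.98%, against 3.91%). The sites are most of these 13567 regions, and among the others the shares were 1.79% and 3.58%. Divided by the median of all, the median was −0.01 and the counts were 231 higher and 234 lower (2.07% and 2.10%, against 2.31% and 2.12% of all). By the authors' fold, whose background was 5.05 in the Nanog + Sin3a line and 5.41 in the Sin3a line, it was −0.01 too. By that fold 3.31% of the sites were higher and 3.72% lower. Where both Sin3a lists reached a −log10 q of 10, 0.336% were higher and 2.61% lower. Shares over all regions by the authors' fold or at this −log10 q are not given here. The SD over sites was 0.284 and counting error alone gave 0.299.

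Sin3a log2 ratios of scaled fragments in the 5 groups by Sin3a rank, low to high, had medians of −0.05, −0.07, −0.08, −0.12 and −0.16. Over all sites the median was −0.10 on this measure and −0.01 by the authors' fold, so the sign of a group depends on the measure. In bins of mean Sin3a rank of 0 to 20, 20 to 40, 40 to 60 and 60 to 80, the sites had −0.05, −0.06, −0.07 and −0.10. Sin3a-only regions of these bins had −0.03, 0.003, −0.03 and −0.03. Chromosome medians ran from −0.22 on chromosome 10 to 0.03 on chromosomes 15 and 18, a wider range than that of the FLAG medians. Past 1.5-fold for both proteins were 36 sites lower for both, 3 higher for both, 11 lower for FLAG and higher for Sin3a, and 2 the other way. For each protein alone, 869 sites were lower and 67 higher for FLAG, and 444 lower and 125 higher for Sin3a. The joint counts have no share over all regions beside them, and whether the proteins moved together was not tested.

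The extremes of the Sin3a ratio were as follows. At chr15:9000338-9002157 there were 67 Sin3a fragments in the Nanog + Sin3a line (52 to 85) and 33 in the Sin3a line (23 to 46), a log2 ratio of 1.16. By the authors' fold the log2 ratio there was 0.59, the expected background was 9 and 5.87, and the Sin3a summits of the lines lay 425 bp apart. At chr2:157385909-157386323 there were 71 and 35 Sin3a fragments (1.16). At chr9:4138854-4139206 Sin3a had 79 and 39 fragments (1.16), and FLAG had 63 in the Nanog + Sin3a line and 29 in the Nanog line (0.87). At the other end, chr1:187155788-187156553 had 29 and 75 Sin3a fragments (−1.23), chr3:113332791-113333214 had 24 and 62 (−1.23), and chr3:65446436-65447895 had 29 and 73 (−1.19). At the last, the log2 ratio by the authors' fold was −0.59, the expected background was 5.09 and 8, and the Sin3a summits of the lines lay 623 bp apart. Only the site on chromosome 9 was also raised by over 1.5-fold for FLAG among these 6.

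A segment of chromosome 6 went against the general shift. Between 50 and 56 Mb it held 28 shared narrow sites, with a median FLAG log2 ratio of 0.46 (interval of the median, 0.27 to 0.61). Their median Sin3a log2 ratio was 0.29. It also held 33 FLAG-only regions with a median FLAG log2 ratio of 0.39. FLAG was over 1.5-fold higher at 9 of the 28 sites and Sin3a at 3. Over all shared narrow sites these shares were 0.596% for FLAG and 1.12% for Sin3a. They were 4.85% of all regions with FLAG in both lines and 1.24% of all with Sin3a in both. The medians of both classes for FLAG, and of the shared narrow sites for Sin3a, were thus above 0 there. Between 120 and 130 Mb of the same chromosome, 98 sites had a median FLAG log2 ratio of −0.20 and a median Sin3a log2 ratio of 0.17 (0.08 to 0.28). Copy number in the lines was not analysed here.

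FLAG and Sin3a summits lay close together at these sites, but less close than summits of 1 antibody. FLAG and Sin3a summits were a median of 93 bp apart in the Nanog + Sin3a line (quartiles 36 and 205 bp) and 82 bp across the single-transgene lines (34 and 178 bp). It was 38 bp between the FLAG lists and 52 bp between the Sin3a lists. Within 50 bp lay 32.7% of FLAG and Sin3a summits in the Nanog + Sin3a line and 34.7% across the single-transgene lines, against 59.1% for FLAG and 48.9% for Sin3a between lines. Over 250 bp apart were 19.9% and 16.8% of the FLAG and Sin3a summits. At wide regions, where the width leaves room for larger distances, this median was 288 bp within the Nanog + Sin3a line. Across the single-transgene lines it was 182 bp there.

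The 4 summits spanned a median of 159 bp. They lay within 20 bp at 161 sites (1.43%), within 50 bp at 1126 (9.98%) and within 100 bp at 3404 (30.2%), against 60 of the wide regions (12.5%) within 100 bp. The closest were 3 bp at chr17:32029729-32030218, chr1:190831263-190831979 and chr1:85111346-85112080. At the last of these the expected background was 16 in each list, higher than at the other 2. Its folds were 4.53 and 5.42 for FLAG and 2.83 and 2.86 for Sin3a.

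The side on which Sin3a lay relative to FLAG recurred between lines. Summits were over 100 bp apart in both comparisons, within the Nanog + Sin3a line and across the single-transgene lines, at 3234 sites. The Sin3a summit lay on the same side of FLAG in both at 2659 of them (82.2%, Wilson interval 80.9 to 83.5%), and at 938 of 1064 (88.2%) when over 250 bp apart. At sites with 1 peak of each list the shares were 84.0% and 91.3%. By the lower of its 2 distances, the farthest pair was at chr8:108460675-108462514, 1358 bp apart in the Nanog + Sin3a line and 1344 bp across the single-transgene lines. The next were 1213 and 1240 bp at chr3:116126350-116128348, and 1140 and 1369 bp at chr1:133034611-133036422, each on the same side in both comparisons. The 4 summits come from 4 different lists, so the lists of the comparisons do not overlap.

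**Figure D5:**
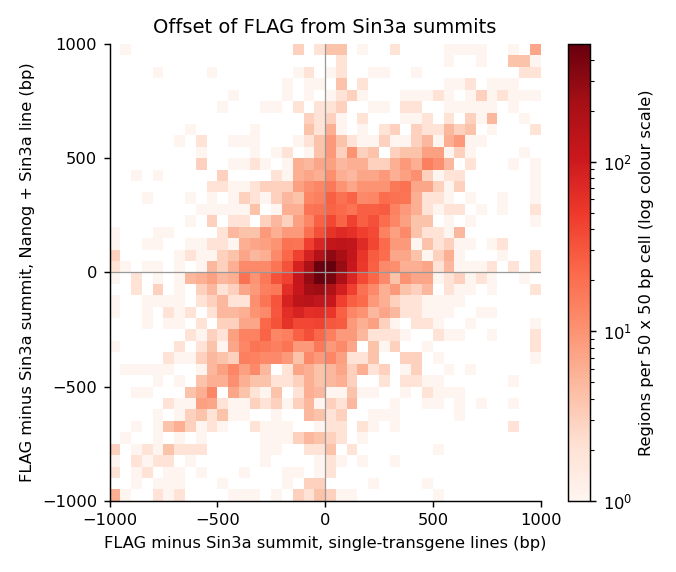
FLAG minus Sin3a summit position in bp within the Nanog + Sin3a line (vertical axis) against that across the single-transgene lines (horizontal axis) for the shared narrow sites (shading, number of sites on a log scale; larger offsets are drawn at the edge). Sites far from 0 lie mainly along the diagonal, and 82.2% of those over 100 bp in both comparisons have the same sign.

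Peaks of the proteins were often nested, which follows in part from the rule, since the peaks of a site had to overlap. The FLAG summit lay inside a Sin3a peak at 90.5% of sites in the Nanog + Sin3a line and 92.5% across the single-transgene lines, and the Sin3a summit inside a FLAG peak at 88.0% and 92.8%. The whole FLAG peak lay within a Sin3a peak at 33.1% and 25.2%, and the whole Sin3a peak within a FLAG peak at 19.7% and 28.5%. In the Nanog + Sin3a line the FLAG peak was the enclosed one more often. Its median width was 530 bp, against 615 bp for Sin3a, while across the single-transgene lines both medians were 614 bp.

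The sites were spread unevenly over chromosomes. Chromosome 11 carried 8.75 shared narrow sites per Mb, chromosome 19 carried 7.45 and chromosome 7 carried 5.63, against 1.62 on chromosome 14 and 0.756 on the X chromosome. The number of shared narrow sites per 100 FLAG-only regions was 91.7 over the genome. It was 123 on chromosome 7, and between 114 and 115 on chromosomes 5, 11 and 19, against 65.9 on chromosome 14, 59.9 on chromosome 18 and 56.2 on the X chromosome. Density and this ratio did not always go together: chromosome 17 had 5.49 sites per Mb and 93.6 per 100 FLAG-only regions, and chromosome 9 had 5.10 and 91.1. Densities take the whole mm9 length and make no allowance for unmappable sequence.

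The X chromosome held 126 of the sites (1.12%, 0.939 to 1.33%), and 0.281% of the sites where all 4 lists reached a −log10 q of 10. Its density per Mb was 0.168 times that of the autosomes for shared narrow sites, 0.275 times for FLAG-only regions and 0.327 times for Sin3a-only regions. The mean FLAG rank had a median of 60.8 on the X chromosome and 70.3 on the autosomes, and the mean Sin3a rank 37.3 and 62.5. Sin3a rank was thus further below the autosomes than FLAG rank. The X sites were also narrower, at 736 against 877 bp.

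The distance to the nearest other shared narrow site had a median of 17256 bp. Another lay within 1 kb of 16.4% of the sites, within 5 kb of 28.6% (11.3% among sites where all 4 lists reached a −log10 q of 10, which are fewer) and within 50 kb of 74.1%. For FLAG-only regions and their own kind these shares were 10.1, 25.5 and 69.2%. At 76 sites no other lay within 1 Mb. The FLAG-only regions nearest to the sites were a median of 29979 bp away, and 18.5% of the sites had one within 5 kb.

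Many of the sites were gathered in a small part of the genome. FLAG-only regions were likewise densest on chromosomes 11 and 19, at 7.64 and 6.54 per Mb. The share of sites in full bins is given without that of other regions, so it shows no trait particular to these sites. Of 2649 bins of 1 Mb, 1680 held at least 1 shared narrow site, and 371 bins with 10 or more held 6490 sites (57.5%). The fullest lay on chromosome 10 between 80 and 81 Mb, with 57 shared narrow sites and 16 FLAG-only regions. The sites there had mean FLAG ranks of 6.92 to 96.6 (median 70.7) and mean Sin3a ranks of 13.1 to 99.2 (median 67.4), and a median gap to the next site of 3209 bp. They were thus spread over nearly the full range of strength rather than uniformly strong. Their median FLAG log2 ratio was −0.29 and their median Sin3a log2 ratio −0.19.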

How the data were processed

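ChIP-seq of mouse pre-iPSCs had 10 samples: 8 ChIP samples in 4 groups of 2 replicates, 1 input and 1 IgG, the last 2 not analysed here. Per the submitters' processing notes, the build was mm9 and the tools were SAMtools 0.1.19, Bowtie 1.0.0 and FastQC 0.10.1, with no role stated. Neither the peak caller nor any pooling of replicates is given in the sources used here.

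Each group has 1 peak list. The deposited fold enrichment is a ratio made by the authors, and the deposited −log10 p and −log10 q are theirs. They were used to rank, filter or describe peaks inside a list, and the fold also for an alternative ratio between lines. Whole numbers of summit fragments were recovered from fold and −log10 p for 99.5 to 99.8% of the peaks of each list (tolerance 0.002). Fragments were multiplied by the scale in the values: 0.731 and 0.868 for FLAG in the Nanog + Sin3a and Nanog lines, and 0.772 and 0.700 for Sin3a in the Nanog + Sin3a and Sin3a lines. Total reads are not known. In 6000 simulated peaks 99.4% had 1 number, and bedtools 2.31.1 gave the same number of merged regions.

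Where a list had several peaks in a site, the one with the highest −log10 q was used. Sites were named by rank, ratio, width or summit distance, with at least 20 fragments for ratios. The sites, classes and rules were chosen with earlier results of these data known. No p-value was computed: every group has 1 list, and sites are not replicates. Intervals (95%; Wilson for shares, exact Poisson for fragments) cover counting error only. Those of medians are order-statistic intervals over sites. They give the precision of the median over sites, not the spread between sites or between replicates. Coordinates are 1-based. Genes and sequence were not analysed here. Python 3.11.15, NumPy 2.4.6, pandas 2.3.3, SciPy 1.17.1, Matplotlib 3.10.9 and GenomeInfoDb 1.38.1 (mm9 lengths) were used.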

Additional observations from a re-analysis of the deposited data

How the results depend on the processing

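No paired analysis was possible because the lists carry no values per replicate, which also means that no replicate was left out. Sequence windows were not run. The cause of the shifts below was not tested, beyond the fewer sites that stricter settings leave.

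The 11281 sites became 7002 with a limit of 1000 bp and 4679 with peaks of −log10 q of 10 or more. The FLAG median log2 ratio (−0.21) was −0.22 by the authors' fold, −0.081 scaled by the median of all regions with FLAG in both lines, and −0.19 where both lists reached a −log10 q of 10. In the same order, sites over 1.5-fold higher (0.596%) were 1.18, 1.35 and 0.404%, and those lower (7.73%) were 10.1, 3.10 and 4.86%. For Sin3a, the median (−0.10) was −0.0086, −0.0065 and −0.11. Sites higher for Sin3a (1.12%) were 3.31, 2.07 and 0.336%, and sites lower (3.98%) were 3.72, 2.10 and 2.61%. The FLAG and Sin3a medians kept their sign in each of these settings, and for Sin3a were close to 0 in the first 2.

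With a limit of 1000 bp, median ranks were 60.2 and 70.1 for FLAG (67.6 and 74.9 over all sites; Nanog + Sin3a and Nanog lines), and 55.0 and 54.3 for Sin3a (64.1 and 62.1; Nanog + Sin3a and Sin3a lines). With 1 peak of each list the Sin3a ranks were 62.9 and 61.1, and ranked by −log10 q the FLAG rank in the Nanog + Sin3a line was 67.7. Summit distances (93 bp in the Nanog + Sin3a line, 82 bp across the single-transgene lines) were 82 and 74 bp with 1 peak of each list, and 73 and 67 bp under 1000 bp. The same side was found at 84.0% with 1 peak of each list and 87.5% where all lists reached a −log10 q of 10 (82.2% over all sites). The X share (1.12%) was 0.281% at that −log10 q and 1.43% under 1000 bp, and the share with another site within 5 kb (28.6%) was 11.3% and 21.8%, where fewer sites are left to be neighbours.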

Other observations

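Neighbouring shared narrow sites were little alike in strength. Over 1810 pairs of adjacent sites with a gap of up to 5 kb, Spearman's rho between their mean ranks was 0.08 for FLAG and 0.04 for Sin3a. Over 4281 adjacent pairs with a gap of 5 to 50 kb it was 0.03 and 0.11. Weak correlations of this size are given as a description only. The next fullest 1 Mb bins were chromosome 10 between 79 and 80 Mb, with 53 shared narrow sites and 8 FLAG-only regions, and chromosome 19 between 5 and 6 Mb, with 52 and 19. Chromosome 7 between 134 and 135 Mb held 41 and 11, and between 148 and 149 Mb 41 and 6. These bins were picked for their number of shared narrow sites.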
